A study of Mus musculus with 6 samples.

Results

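Tricarboxylic acid cycle enzymes were followed as 9 genes, Idh1, Idh2, Idh3a, Aco1, Pdha1, Cs, Ogdh, Mdh1 and Mdh2, out of 26181 genes in the deposited table of normalised counts. The set was chosen by enzyme name, with earlier results of these data known, so that cytosolic could be set against mitochondrial isoforms. All 9 were found by symbol, and all 9 passed the filter on low values (a mean of at least 10 normalised counts). The enzymes of Idh1, Aco1 and Mdh1 work in the cytosol, and those of the other 6 in mitochondria. RNA came from CD8+ T cells of the spleens of wild-type C57BL/6 mice, aged 6 weeks when 7 weeks of diet began. The 3 control libraries are labelled ND. The 3 others are labelled CDAHFD, a high-fat diet that lacks choline and is used to bring on steatohepatitis in mice. Whether each library came from its own mouse was not stated, so the p-values cover only the spread between these libraries, and that spread may be technical. Sex and the way the cells were purified were not stated either.

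The cycle oxidises acetyl units in the mitochondrial matrix and feeds electrons to the respiratory chain. The pyruvate dehydrogenase complex supplies the acetyl units, citrate synthase condenses them with oxaloacetate, and aconitase, the isocitrate and 2-oxoglutarate dehydrogenases and malate dehydrogenase carry out later steps. Several steps have a cytosolic counterpart encoded by a separate gene. These counterparts handle citrate, isocitrate and malate outside the matrix and make NADPH or move reducing equivalents. In T cells the pathway is known to support proliferation and memory, and its intermediates are used in chromatin modification.

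The 3 genes with the largest changes are shown by the 250 bases before their RefSeq transcription start (GRCm38.p6), as a view of the sequence where the transcription of each gene begins. Capitals mark the CCAAT box, spelled CCAAT, and the GC box, spelled GGGCGG, each searched on both strands. The windows are chr1:65186480-65186729 for Idh1, minus strand, chr4:40143015-40143264 for Aco1, plus strand, and chr7:80115351-80115600 for Idh2, minus strand.
Idh1: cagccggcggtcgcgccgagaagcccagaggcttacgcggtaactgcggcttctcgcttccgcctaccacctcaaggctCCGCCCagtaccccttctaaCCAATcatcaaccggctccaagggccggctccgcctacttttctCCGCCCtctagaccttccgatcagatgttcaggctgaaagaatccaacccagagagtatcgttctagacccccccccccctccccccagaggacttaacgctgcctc
Aco1: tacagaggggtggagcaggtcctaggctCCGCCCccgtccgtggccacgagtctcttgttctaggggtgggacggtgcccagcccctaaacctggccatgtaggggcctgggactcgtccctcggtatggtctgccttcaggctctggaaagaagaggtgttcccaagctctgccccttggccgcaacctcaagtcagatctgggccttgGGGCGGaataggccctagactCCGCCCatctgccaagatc
Idh2: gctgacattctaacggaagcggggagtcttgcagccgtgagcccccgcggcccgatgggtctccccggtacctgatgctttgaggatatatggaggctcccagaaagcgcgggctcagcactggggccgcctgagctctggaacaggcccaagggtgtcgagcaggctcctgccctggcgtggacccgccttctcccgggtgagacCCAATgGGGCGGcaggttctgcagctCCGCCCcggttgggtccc
Idh1 and Idh2 held both motifs, and Aco1 held GC boxes. Of the 9 genes, 8 had a window in the RefSeq table. By the GENCODE gene bounds, the Mdh1 window lies inside its gene, and the Aco1 and Mdh2 windows lie mostly inside theirs. These windows thus lie wholly or mostly past the GENCODE start. A GC box was in 7 of these 8 windows, against 32.7% of 32817 promoter windows of the same length, and a CCAAT box in 5 of 8, against 33.8%. On either strand, none of the 8 windows held the TATA box TATAAA (in 12.4% of all windows), the E-box CACGTG (6.02%), the nuclear receptor motif AGGTCA (14%) or the NRF1 core CGCATGCG (1.54%). These matches describe the sequence and are not evidence of binding.

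With the CDAHFD diet the cytosolic gene Idh1 rose 2.48-fold and the cytosolic gene Aco1 rose 1.26-fold, while 4 mitochondrial genes fell: Idh2 by 27.8%, Pdha1 by 18%, Idh3a by 13.5% and Cs by 9.1%. Mdh1, Mdh2 and Ogdh did not pass the test. A gene was called at an adjusted p under 0.05 in limma, a linear model fitted to log2(normalised count + 1) of all 15819 genes tested, with Benjamini-Hochberg adjustment over all of them. By that rule 2 of the 9 genes were called higher and 4 lower, against 24.6% and 22.5% of all tested genes. In either direction 66.7% of the 9 were called, against 47.1% of all tested genes. The diets did not overlap for 7 of the 9 genes (77.8%), against 54.3% of all tested genes. With 9 genes, these shares are not read as different from the background. The median log2 fold change was 0.34 over the 3 cytosolic genes and -0.17 over the 6 mitochondrial genes, against -0.01 over all tested genes. The cytosolic median is simply the value of Aco1, and cytosolic Mdh1 stood at -0.02. An exact two-sided permutation test of 3 against 3 libraries cannot give a p under 0.1. It gave that value for each of the 7 genes whose diets did not overlap.

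**Figure D1:**
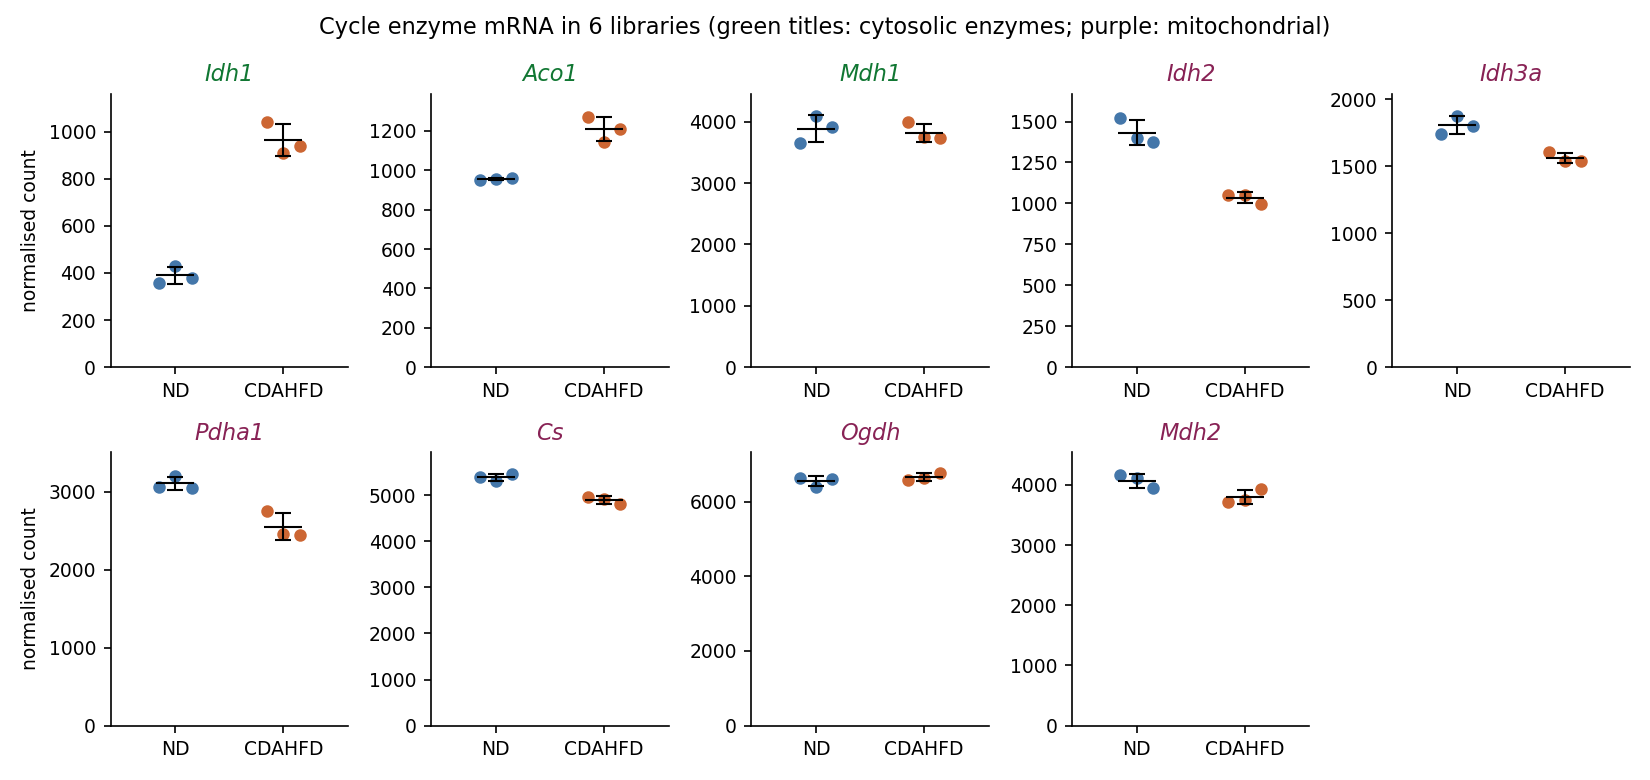
Normalised counts (y axis, from 0) of the 9 genes in the 3 ND (blue) and 3 CDAHFD (orange) libraries; points are libraries, bars the mean and SD. Idh1 shows the widest gap, with ND values up to 432 and CDAHFD values from 911, while Mdh1 and Ogdh overlap between diets.

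Markers of CD8+ T cells were high in all libraries, and markers of other cell types were detected beside them. In the CDAHFD libraries the listed macrophage markers summed to more than the listed CD8 T cell markers. Reads assigned to genes numbered 25314988 to 28067393 per library. The 12 CD8 T cell markers summed to 153976 to 158339 normalised counts in ND and 123030 to 127869 in CDAHFD libraries, and 11 of them fell. The 16 macrophage markers, of which all rose, summed to 22974 to 25693 and 176419 to 193079. The 9 erythroid markers, of which all rose, summed to 946 to 995 and 9264 to 9545. Of 10 neutrophil markers 8 rose (sums 3656 to 3722 and 10472 to 11667). Of 6 plasma cell markers tested 5 rose (sums of all 7 listed 3822 to 3964 and 37430 to 38772). Of 10 B cell markers 9 fell and 1 rose (sums 26691 to 27772 and 21010 to 22080), and of 8 dendritic cell markers 5 fell. Of 6 NK cell markers 3 rose. Of all tested genes 24.6% were called higher and 22.5% lower. None of these markers was at 0 in all libraries. The part of these cells in the results on cycle enzymes was not tested, and in such bulk samples fewer cells of a type and less RNA per cell cannot be told apart.

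Idh1 (ENSMUSG00000025950, chromosome 1, 65158616 to 65186500 in mm10, protein coding) encodes the cytosolic and peroxisomal isocitrate dehydrogenase, which makes NADPH. It stood at 359, 432 and 378 normalised counts in the ND libraries and at 1041, 911 and 940 in the CDAHFD libraries. The lowest CDAHFD library lay far above the highest ND library. The mean went from 389 ± 37.8 to 964 ± 68.5 (SD, n = 3 per diet), which is 1.31 on the log2 scale (SE 0.08, limma adjusted p = 1.73e-14). In all, 1131 called genes had a larger log2 fold change, in libraries where the macrophage markers rose by a median of 3.00 and the erythroid markers by a median of 3.13 on the same scale.

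The gene Idh2 (ENSMUSG00000030541, chromosome 7, 80094846 to 80115392) encodes the mitochondrial isocitrate dehydrogenase that makes NADPH. It moved the other way. Its values were 1521, 1402 and 1374 normalised counts in ND and 1051, 1054 and 995 in CDAHFD libraries, so that every CDAHFD library was below every ND library. The mean fell from 1432 ± 78.2 to 1033 ± 33.2 (log2 fold change -0.47, SE 0.06, limma adjusted p = 3.88e-08). The CD8 T cell markers fell by a median of 0.35 on the same scale.

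Idh3a (chromosome 9, 54586334 to 54604661) encodes the catalytic subunit of the NAD-dependent isocitrate dehydrogenase of the cycle itself. Its normalised counts were 1742, 1872 and 1799 in ND and 1605, 1537 and 1538 in CDAHFD libraries, without overlap. The mean fell from 1804 ± 65.4 to 1560 ± 38.9 (log2 fold change -0.21, SE 0.05, limma adjusted p = 7.41e-04). The other subunits of the enzyme differed from each other. Idh3g fell from 2459 ± 39.7 to 2238 ± 56, and Idh3b had means of 2898 ± 82 in ND and 2974 ± 66.6 in CDAHFD libraries (limma adjusted p = 0.502, 95% interval of the log2 fold change -0.05 to 0.13).

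Aco1 (ENSMUSG00000028405, chromosome 4, 40143081 to 40198338) encodes the cytosolic aconitase, which turns into the RNA-binding protein IRP1 when it lacks its iron-sulfur cluster. The ND libraries were nearly alike, at 953, 957 and 959 normalised counts. The CDAHFD libraries stood at 1271, 1146 and 1210, all of them higher and more widely spread. The mean rose from 956 ± 3.09 to 1209 ± 62.5 (log2 fold change 0.34, SE 0.06, limma adjusted p = 1.17e-05).

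Pdha1 (chromosome X, 160122209 to 160138413) encodes the catalytic alpha subunit of the enzyme that opens the pyruvate dehydrogenase complex. Its normalised counts were 3064, 3211 and 3053 in ND and 2750, 2460 and 2442 in CDAHFD libraries. The groups did not overlap, and CDAHFD replicate 1 lay between the ND libraries and the other CDAHFD libraries. The mean fell from 3109 ± 88.4 to 2551 ± 173 (log2 fold change -0.29, SE 0.05, limma adjusted p = 1.12e-05). Its locus is shared with Map3k15 on the opposite strand, with means of 122 in ND and 213 in CDAHFD libraries, and since the strand setting of the counting was not stated, some reads of these genes cannot be told apart. Cs (chromosome 10, 128337734 to 128362479), the citrate synthase gene, stood at 5402, 5306 and 5453 in ND and at 4969, 4914 and 4807 in CDAHFD libraries. The groups were close to each other and did not overlap. The mean fell from 5387 ± 74.8 to 4897 ± 82.5 (log2 fold change -0.14, SE 0.04, limma adjusted p = 0.00457). Near copies of Cs held few counts, with means of at most 4 normalised counts for Csl and Gm48254 in either diet.

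Ogdh (chromosome 11, 6291633 to 6356642) encodes the dehydrogenase subunit of the 2-oxoglutarate dehydrogenase complex and had the highest normalised counts of the 9 genes. It stood at 6643, 6387 and 6609 in ND and at 6575, 6632 and 6766 in CDAHFD libraries, with overlap. Its log2 fold change of 0.02 had a 95% interval of -0.05 to 0.10 (limma adjusted p = 0.637). The malate dehydrogenase genes gave no call either. Cytosolic Mdh1 (chromosome 11, 21556787 to 21572367), part of the malate-aspartate shuttle, stood at 3659, 4092 and 3918 in ND and at 3990, 3744 and 3730 in CDAHFD libraries. Its diets overlapped, as does its locus with Wdpcp on the opposite strand (means of 24.1 and 47.8), and the log2 fold change was -0.02 (95% interval -0.12 to 0.07, limma adjusted p = 0.688). Mitochondrial Mdh2 (chromosome 5, 135778480 to 135790398) stood at 4162, 4108 and 3943 in ND and at 3723, 3746 and 3929 in CDAHFD libraries. CDAHFD replicate 3 was just below the lowest ND library, and the groups did not overlap. Mdh2 narrowly missed the threshold (log2 fold change -0.10, SE 0.04, 95% interval -0.19 to -0.01, limma adjusted p = 0.0508). It passed in edgeR's quasi-likelihood test (adjusted p = 0.0436), and also when ND replicate 3 (adjusted p = 0.0391) or CDAHFD replicate 3 (adjusted p = 0.0367) was left out.

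Genes of cytosolic enzymes were then compared with genes of their mitochondrial counterparts inside each library, where the library's scaling cancels. The ratios Idh1/Idh2 and Idh1/Idh3a were higher in every CDAHFD library than in any ND library, and Mdh1/Mdh2 overlapped. The ratio of Idh1 to Idh2 in normalised counts was 0.236, 0.308 and 0.275 in ND and 0.991, 0.864 and 0.945 in CDAHFD libraries. Idh1 thus went from well below Idh2 to near its count. The mean log2 ratio went from -1.88 ± 0.19 to -0.10 ± 0.10 (SD, n = 3 per diet), a difference of 1.78, or 3.43-fold. For Idh1 over Idh3a the ratio was 0.206, 0.231 and 0.21 in ND and 0.649, 0.593 and 0.611 in CDAHFD libraries, a difference of 1.52 on the log2 scale. For Mdh1 over Mdh2 it was 0.879, 0.996 and 0.994 in ND and 1.07, 0.999 and 0.949 in CDAHFD libraries. The Mdh1/Mdh2 difference was 0.07 on the log2 scale, less than the SD of 0.10 in ND libraries. The exact two-sided permutation p was 0.1 for both Idh1 ratios, the smallest that 3 against 3 allow, and 0.4 for Mdh1/Mdh2. Adjusted over the 4 pairs computed these became 0.133 and 0.4, so none of these ratios passed 0.05. Idh1 and Idh2 transcripts share at most 19 identical bases in a row, and those of the other pairs given here at most 11. The macrophage markers, which rose by a median of 3.00, moved with both Idh1 ratios, and their part in them was not tested.

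**Figure D2:**
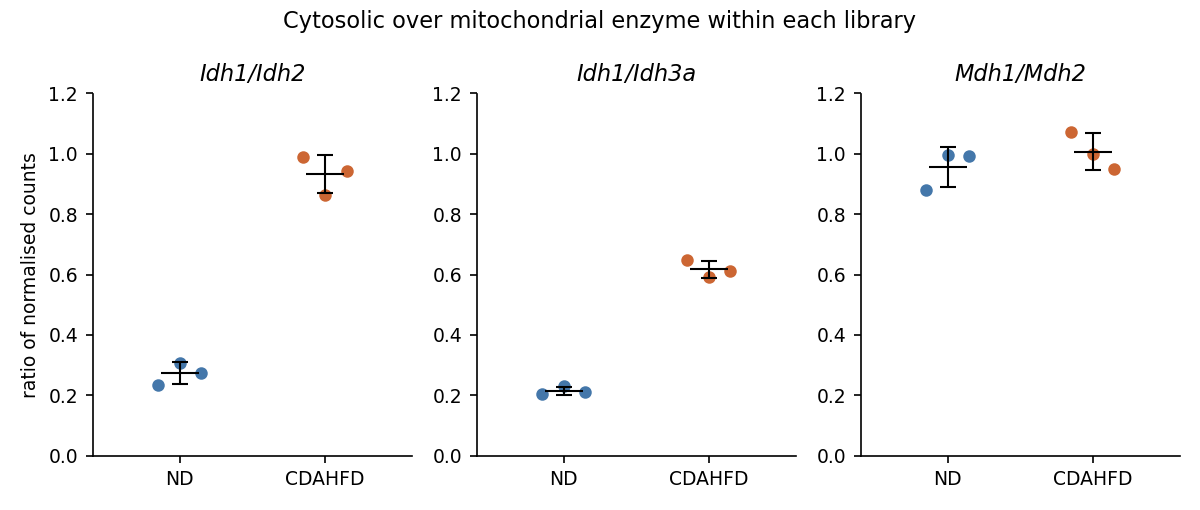
Ratio of the normalised counts of a cytosolic to a mitochondrial enzyme gene (y axis, from 0) in ND (blue) and CDAHFD (orange) libraries; points are libraries, bars the mean and SD. Idh1/Idh2 goes from 0.236 to 0.308 in ND libraries to 0.864 to 0.991 in CDAHFD libraries, and Mdh1/Mdh2 overlaps.

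Levels of different genes were set side by side per kilobase of annotated exon, counted over all annotated transcripts of a gene. This length was 2567 bases for Mdh1, 3562 for Mdh2 and 5072 for Idh3a, while their longest coding transcripts have 2122, 1456 and 2580 bases. The order and shares below hold for the exon length only. They can differ with transcript length, as for Mdh1 beside Mdh2 and Idh1 beside Idh3a. In ND libraries Mdh1 was highest, at 1515 ± 84.8 normalised counts per kilobase, followed by Ogdh at 1199.8 ± 25.5, Mdh2 at 1143 ± 32, Cs at 932 ± 12.9, Pdha1 at 833 ± 23.7, Idh2 at 553 ± 30.2 and Idh3a at 356 ± 12.9. Aco1, at 213 ± 0.688, and Idh1, at 141 ± 13.6, were the lowest. In CDAHFD libraries Idh1 stood at 348 ± 24.7 per kilobase, above Idh3a (308 ± 7.67) and Aco1 (269 ± 13.9) and below Idh2 (399 ± 12.8). No neighbours in either order overlapped between their 3 libraries. Idh1 made up 20.3% ± 2.15 of the summed Idh1 and Idh2 level per kilobase in ND libraries and 46.5% ± 1.72 in CDAHFD libraries. Their sum itself was 694 ± 25.1 and 747 ± 30.7 per kilobase (exact permutation p = 0.1, the smallest possible). Mdh1 made up 57% ± 1.75 and 58.2% ± 1.48 of the summed malate dehydrogenase level, in ND and CDAHFD libraries.

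Over all 8 lists of related pathways, 20 of 64 tested genes rose and 16 fell, 56.25% against the 47.1% of all tested genes. The counts of each list below stand beside 24.6% of all tested genes called higher and 22.5% called lower. No list was tested against these shares. The rest of the cycle moved by small amounts in both directions. Among 13 tested genes of further cycle subunits, 2 were called higher, 4 lower and 7 missed the threshold, and the median log2 fold change was -0.03. The count of rises was 1 without ND replicate 2, ND replicate 3 or CDAHFD replicate 1, and limma without trend and robust estimation gave 1 rise and 2 falls. Fh1, the fumarase gene, fell from 1309.6 ± 38.7 to 1131 ± 90.4 normalised counts (log2 fold change -0.21, limma adjusted p = 0.0031). The subunits of succinate dehydrogenase, which is also complex II of the respiratory chain, went apart. Sdhd, a membrane anchor, fell from 1659.8 ± 34 to 1443 ± 56.4, and Sdhb, the iron-sulfur subunit, fell from 1810.1 ± 98 to 1578 ± 58.1. Sdhc, the other membrane anchor, rose from 1396 ± 17.8 to 1561 ± 20.2, and Sdha, the flavoprotein, stood at 7109 ± 409 and 7218 ± 378 (limma adjusted p = 0.723). Suclg1, a subunit of succinyl-CoA synthetase, rose from 1489 ± 15.3 to 1637 ± 58.2. Dlst, Dld, Suclg2, Sucla2, Idh3b and Sdha were among those that did not pass, and Ogdhl and Csl were below the filter. No gene of this list or of the 6 mitochondrial genes changed by as much as Idh1 did, whose log2 fold change was 1.31.

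**Figure D3:**
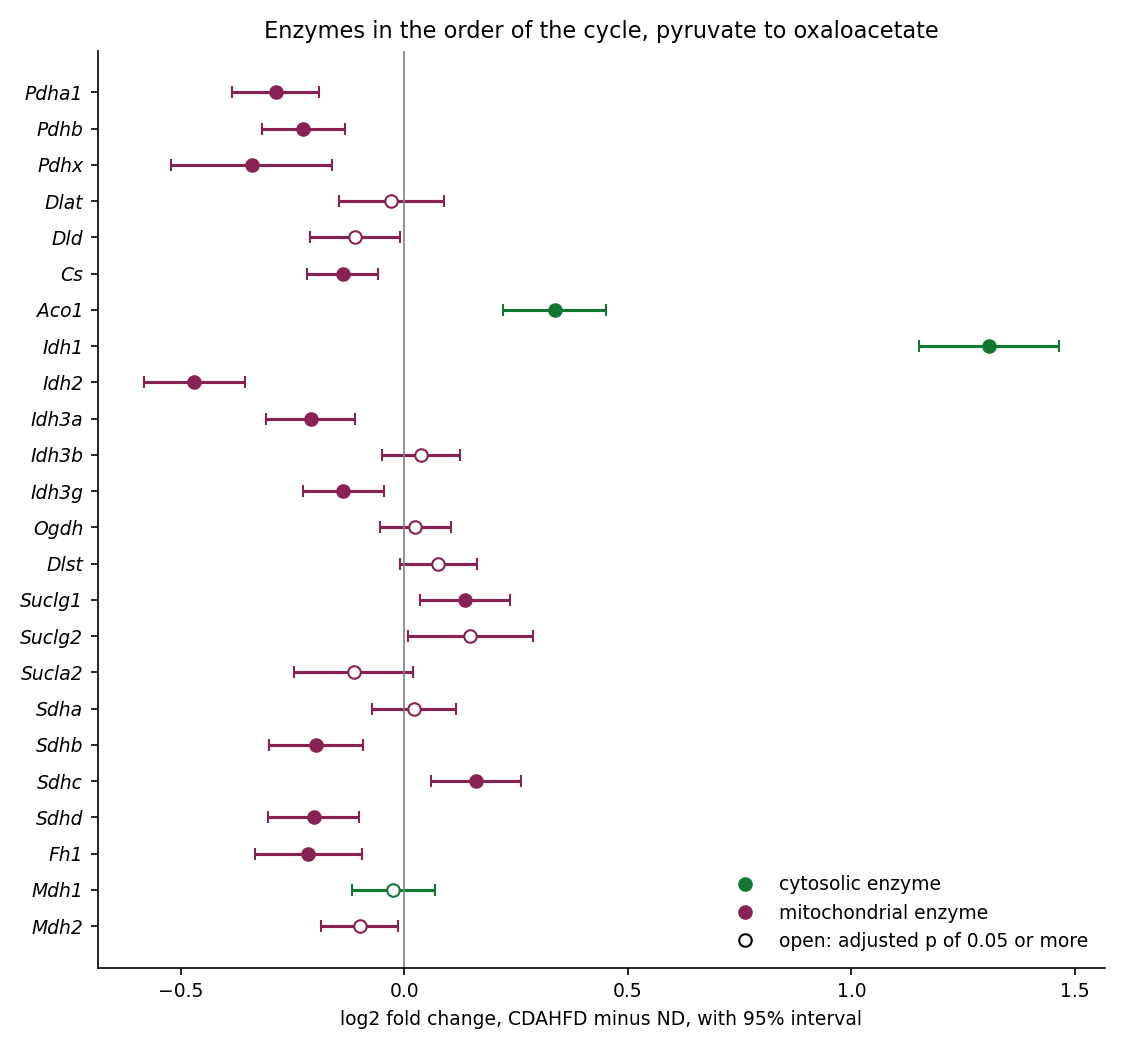
Log2 fold change, CDAHFD minus ND, with 95% interval (x axis) of enzyme genes in the order of the cycle (y axis); green marks cytosolic and purple mitochondrial enzymes, and open points did not pass an adjusted p of 0.05. Idh1 (1.31) and Aco1 (0.34) lie to the right of every mitochondrial gene shown, while cytosolic Mdh1 (-0.02) lies among them.

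At the entry of pyruvate, 4 of 11 tested genes fell and none of the other 7 was called, where 47.1% of all tested genes were called and 22.5% fell. Pdhb, the partner of Pdha1 in the same enzyme, fell from 2659 ± 105 to 2273 ± 68 normalised counts, a log2 fold change of -0.23 beside the -0.29 of Pdha1. Genes of kinases that switch the complex off fell more: Pdk1 from 7721 ± 137 to 5369 ± 142 (log2 fold change -0.52, limma adjusted p = 4.09e-12) and Pdk2 from 358 ± 33.2 to 237 ± 12.7. Pdk3 stood at 686 ± 19.2 and 687 ± 10.7, and the phosphatase genes Pdp1 and Pdp2 did not pass the test. Pdk4, below the filter, was at 0 in the 3 ND libraries and at 1.06, 2.84 and 4.84 normalised counts in the CDAHFD libraries. It was tested only when no filter was used, and was called higher there (limma adjusted p = 0.0185). That call rests on a few reads in the CDAHFD libraries alone, so no rise of Pdk4 is read from it. Markers of CD8 T cells, B cells and dendritic cells were lower in the same CDAHFD libraries, with median log2 fold changes of -0.35, -0.37 and -0.52, and their part in these falls was not tested.

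Genes that link the cycle to the cytosol moved both ways. Of 10 tested shuttle genes 3 were higher, 3 lower and 4 not called, beside 24.6% of all tested genes called higher and 22.5% lower. Gpd1, the cytosolic glycerol-3-phosphate dehydrogenase, rose from 38.2 ± 6 to 394 ± 21.8 (log2 fold change 3.34, limma adjusted p = 1.28e-17). Got1, the cytosolic aspartate aminotransferase that works with Mdh1, rose from 809 ± 70.8 to 1180.1 ± 30.7 (log2 fold change 0.55, limma adjusted p = 2.31e-08), and its mitochondrial counterpart Got2 stood at 2456 ± 85.7 and 2374 ± 92.8 (limma adjusted p = 0.412). The aspartate-glutamate carrier Slc25a13 fell from 187 ± 35.6 to 105 ± 3.81. The macrophage and erythroid markers moved with the rises, and their part in them was not tested.

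Among genes of other NADPH sources and the pentose phosphate pathway, 3 of 6 tested cytosolic genes rose and none fell (median log2 fold change 0.17). Of 4 tested mitochondrial genes 1 rose and 2 fell (median -0.24). Of all tested genes 24.6% were called higher and 22.5% lower. The summed mitochondrial list, mostly Glud1, was higher in CDAHFD libraries, at 8149 to 8568 normalised counts against 7502 to 7731 in ND libraries. Cytosolic Pgd was not called (limma adjusted p = 0.103). The cytosolic group rose in G6pdx, which opens the pentose phosphate pathway (from 1351 ± 35.2 to 1869.7 ± 56.6), Taldo1 of the same pathway (from 4657 ± 257 to 5493 ± 110) and Aldh1l1 of folate metabolism (from 32.1 ± 2.74 to 101 ± 13.9). Tkt, of the pentose phosphate pathway too, was just short of a call (limma adjusted p = 0.0512) and was called lower with edgeR (adjusted p = 0.0416), with equal totals, with a minimum mean of 50, without ND replicate 3 and without CDAHFD replicate 1. In the mitochondrial group Mthfd2 fell from 986 ± 9.7 to 836 ± 14.3 and Glud1, glutamate dehydrogenase, rose from 6473 ± 128 to 7374 ± 220 normalised counts. The count of mitochondrial falls was 1 in DESeq2, with a minimum mean of 50, and without ND replicate 1, ND replicate 2, CDAHFD replicate 1 or CDAHFD replicate 2. The difference between these groups was not tested. Of 8 tested genes that bring carbon or glutamine into the cycle 4 were higher, 1 was lower (0 without ND replicate 1 or without trend and robust estimation, 2 with equal totals) and 3 were not called. Glul, which makes glutamine, rose from 2875 ± 120.1 to 8371 ± 473 (log2 fold change 1.54, limma adjusted p = 1.48e-21), Pck2 from 369 ± 27 to 680.03 ± 10.8, and Gpt2 from 25.7 ± 0.777 to 63.3 ± 9.31. The macrophage markers summed to 22974 to 25693 and 176419 to 193079 in the same ND and CDAHFD libraries.

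Of 5 tested genes around 2-hydroxyglutarate, itaconate and iron regulation, 3 rose and the other 2 were not called; the falls counted 0, or 1 with equal totals and without ND replicate 1, CDAHFD replicate 1 or CDAHFD replicate 3. With a minimum mean of 50 the rises counted 1, because Acod1 and Adhfe1 lay below that mean and were not tested. Acod1, which makes itaconate from cis-aconitate and is known from activated macrophages, rose from 9.41 ± 2.71 to 56.1 ± 4.92 (log2 fold change 2.48, limma adjusted p = 4.90e-08). Its ND mean was below 10, so Acod1 passed the filter only through the CDAHFD libraries. With no filter the rises of this list still counted 3. D2hgdh, which oxidises D-2-hydroxyglutarate to 2-oxoglutarate, rose from 914 ± 34.8 to 1118 ± 75.9, and Adhfe1 from 13.9 ± 2.81 to 39.6 ± 6.67. Beside Aco1, the mRNAs with iron-responsive elements that IRP1 is known to bind gave 4 rises, 2 falls (1 without trend and robust estimation) and 1 gene that did not pass among 7 tested. Both counts in this paragraph stand beside 24.6% of all tested genes called higher and 22.5% lower. The ferritin genes Fth1 and Ftl1 rose from 10884 ± 508 to 21364 ± 149 and from 6219 ± 126 to 13428 ± 107. Alas2 rose from 47.2 ± 10.6 to 402 ± 19.6. The 2 falls were those of Tfrc, from 2594 ± 169 to 2035 ± 93.6, and Slc11a2, from 1917 ± 53 to 1706 ± 104. Slc40a1 and Alas2 of that list are also on the macrophage and erythroid lists. The markers on these 2 lists rose by medians of 3.00 and 3.13 on the log2 scale in the same libraries. Their part in the rises of this paragraph, and any part of IRP1, was not tested. The gene of the related protein IRP2, Ireb2, stood at 3327 ± 115 and 3119 ± 103 (limma adjusted p = 0.0818).

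**Figure D4:**
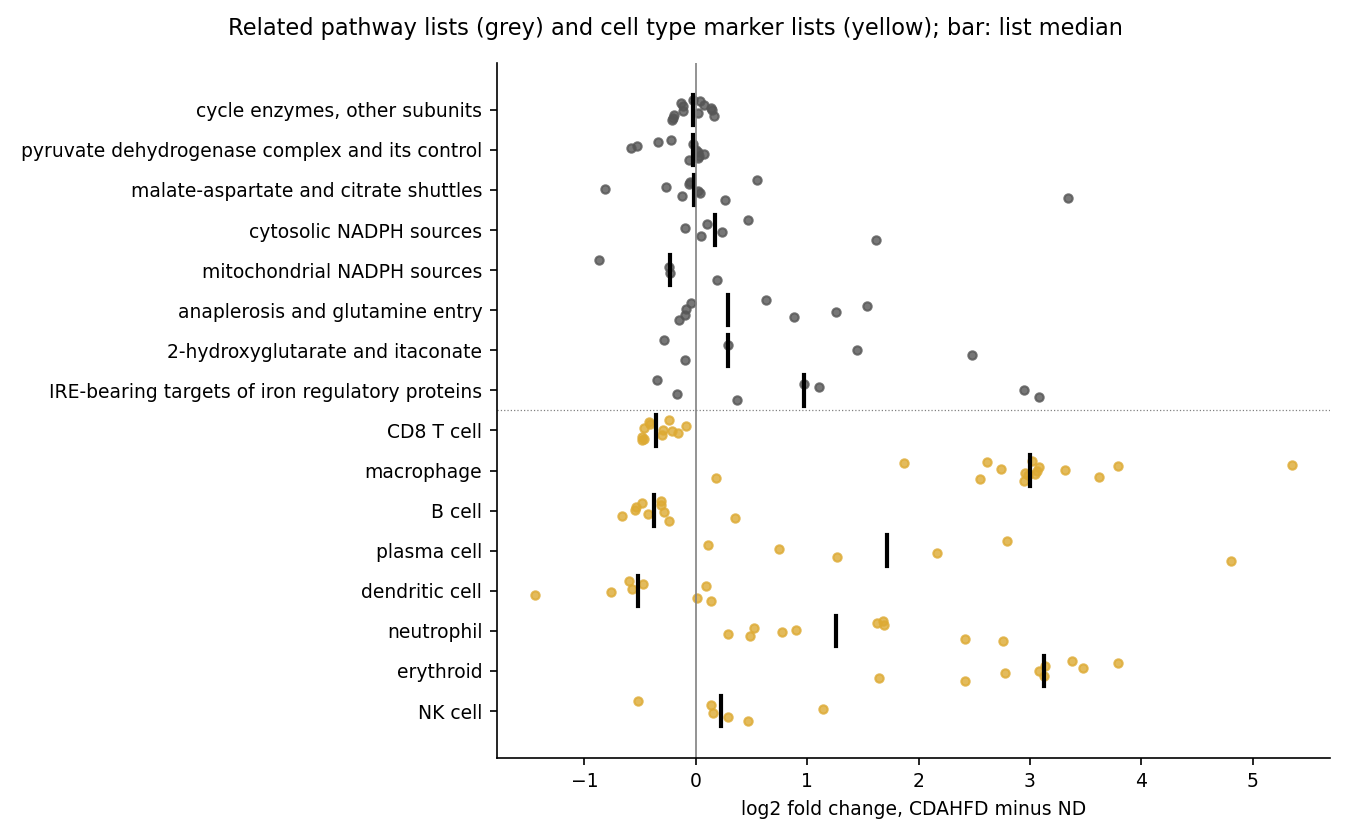
Log2 fold change, CDAHFD minus ND (x axis), of each tested gene in 8 related pathway lists (grey) and 8 cell type marker lists (yellow), with the median of each list as a bar. The cycle lists lie near 0, with a median of -0.03 for further cycle subunits, while the macrophage and erythroid medians are 3.00 and 3.13.

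Over the 6 libraries, the genes whose log2 values followed those of Idh1 most closely, among 11002 others whose mean reached 100 normalised counts, were Ggta1 (Pearson r = 0.99979), Angptl4 (r = 0.99974) and Mpeg1 (r = 0.99904). All 3 rose, Ggta1 from 1167 to 1861, Angptl4 from 138 to 488 and Mpeg1, a perforin-like gene of macrophages, from 13716 to 25619 normalised counts. With 3 libraries on each side of one diet difference such values are common: 1683 genes had an r of at least 0.95, so the ranking is a description only.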

How the data were processed

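RNA was sequenced in 6 libraries. The deposited table holds a signal per gene and library, which is a read count scaled by a library factor, for 26181 Ensembl IDs. Per the submitters' processing notes the build was mm10; no source used here names aligner, counter, strand setting or annotation. Per the labels' protocols, a whole-RNA or an mRNA kit was used, without saying which for which library. The columns named CDHFD were taken as the CDAHFD samples.

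A name table gave symbols (26147 IDs matched); positions and exon lengths came from GENCODE M21, promoter windows from RefSeq (GRCm38.p6). The main test was limma 3.58.1 (R 4.3.3; trend and robust estimation) on log2(normalised count + 1) for 15819 genes (mean 10 or higher), adjusted over all of them; the method was tested on simulated data. Fold changes on this scale understate the change of low genes. Pair ratios used exact permutation tests. All values were whole multiples of the smallest one (100% within 0.001), so edgeR and DESeq2 could be run on whole reads, with edgeR 4.0.16 calling 7536 genes and DESeq2 1.42.0 calling 6755. Between libraries of 1 diet, reads differed by 2.85 to 6.16 times sampling variance, so none repeated another. The members, lists and tests were chosen with earlier results of these data known. Named beside the 9 genes were up to 3 called genes of smallest adjusted p per pathway list, the further cycle subunits, and the 3 genes most like Idh1; any other gene was named after its values were seen. Of the genes and pairs computed, 1 gene of the further cycle subunits and 1 pair are not reported here.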

Additional observations from a re-analysis of the deposited data

How the results depend on the processing

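Other pseudocounts (0.5 and 5), no filter or a minimum mean of 50, scaling to equal totals or by trimmed means, limma without trend and robust estimation, edgeR, DESeq2, a replicate block and leaving out each library were tried. The calls of Idh1, Aco1, Idh2, Pdha1, Idh3a and Cs, and the missing calls of Mdh1 and Ogdh, held under all 16. Mdh2 passed with a minimum mean of 50 (log2 fold change -0.10, adjusted p = 0.0439), with equal totals (-0.12, adjusted p = 0.0188) and in edgeR (-0.10, adjusted p = 0.0436), and ranged from -0.124 to -0.0836 when libraries were left out; the cause was not tested. Same-numbered libraries did not deviate together (correlations 0.04, -0.05 and 0.06), so the numbers were not taken as pairs; with the replicate block 7250 genes were called in place of 7449, and no call among the 9 genes changed. Of 256 list counts under alternatives, 230 stayed within 1.5 times and 26 did not, each from a count of 0 to 4 genes. Differences of the pair ratios stayed within 1 SD. The lowest count among the 9 genes was 344 reads, for Idh1 in an ND library, and each diet had 3 libraries; both limit the precision.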

Other observations

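Nnt, the mitochondrial transhydrogenase that makes NADPH, was named by the rule at a low level, at 24.1 ± 4.04 normalised counts in ND and 12.8 ± 3.19 in CDAHFD libraries (limma adjusted p = 0.0332). The call was lost in DESeq2 (adjusted p = 0.0898) and without ND replicate 1 (0.0652), ND replicate 2 (0.135), CDAHFD replicate 1 (0.0631) or CDAHFD replicate 2 (0.105), and Nnt was below a minimum mean of 50. Me1, the cytosolic malic enzyme, was below the filter, at 1.66 ± 0.566 and 10.8 ± 1.58 normalised counts.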
